A study of Mus musculus with 9 samples.

Results

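The genes described here encode the proteins of the cytosolic ribosome. They were chosen by symbol: every gene of the deposited tables whose symbol is Rpl or Rps with a number, with or without a closing a, x or l and digits after it, together with Rplp0, Rplp1, Rplp2 and Rpsa. This gave 81 of the 15092 genes whose reads could be worked out for each library, and all 81 are listed in each of the 3 deposited tables. By role they are 42 proteins of the large (60S) subunit, 30 proteins of the small (40S) subunit, 4 genes of the acidic stalk and its base, 1 ubiquitin fusion (Rps27a) and 4 paralogs of core genes.

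RNA was sequenced from neonatal rat ventricular myocytes, heart muscle cells isolated from Sprague-Dawley rats 1 or 2 days old, after infection with an adenovirus. The study asked how forced expression of the stress-responsive transcription factors Nrf1 and Nrf2 changes the transcripts of these cells. There were 3 groups with 3 libraries each: LacZ (Adeno-LacZ, a bacterial enzyme, the control), Nrf1 (Adeno-Nrf1) and Nrf2 (Adeno-Nrf2). All 3 groups were kept for 48 h in culture on gelatin, received virus at a multiplicity of infection of 50 and were collected 48 h later. The viral vector of all 3 groups uses a CMV promoter, which is not limited to heart muscle cells, and carries a red fluorescent protein; the Nrf1 and Nrf2 coding sequences are from mouse. The organism field of the sample records says mouse, while the cell descriptions and the genome used say rat. The labels do not say whether the 3 libraries of a group came from separate isolations, so the p-values below measure only the spread between these libraries.

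The libraries are named a, b and c within each group by falling depth, because the values recovered from group means carry no replicate number. Assigned reads here are those on the 15092 genes solved in all libraries, so genes left out are not counted. The LacZ libraries held 9264292 (a), 8148447 (b) and 7807850 (c) assigned reads. The Nrf1 libraries held 10220220, 9969890 and 8488259, and the Nrf2 libraries 11830320, 11233531 and 10076919. Depth therefore moved with the group, with each Nrf2 library deeper than each LacZ library, and its part in the results was not tested beyond the scalings given below. Levels are read counts divided by the size factor of the library, and they depend on gene length too. Genes are ranked against each other per kilobase of coding sequence, while level classes and the most abundant marker of a list go by level alone.

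The Nrf2 label was checked on Nfe2l2, the gene of that factor, whose levels were 3473, 3399 and 3493 in LacZ, 2815, 2894 and 2869 in Nrf1, and 78776, 77442 and 67556 in Nrf2. The 3 Nrf2 libraries stand far above the other 6, at a log2 ratio to LacZ of 4.43. Overexpression in the Nrf1 libraries was not checked here. The cell label was checked on 8 cardiomyocyte markers, none of which was at 0, and their summed level was 127218, 109468 and 118426 in LacZ, 120448, 120592 and 121847 in Nrf1, and 131572, 133392 and 130537 in Nrf2. The most abundant of them was Actc1, cardiac actin, at a mean of 37152 ± 4571 (SD, n = 3) in LacZ. Fibroblast markers were present as well, and their levels are given with the results they move with.

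A ribosome is built from a small subunit, which holds the mRNA and reads its codons, and a large subunit, which joins the amino acids and carries a stalk that recruits elongation factors. Cells make the ribosomal proteins in matched amounts, and their mRNAs begin with a pyrimidine-rich tract (the 5 prime TOP tract) through which their translation is switched together by nutrient and growth signals. In heart muscle, ribosome production is known for its rise during hypertrophic growth.

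The average level of the 81 genes over the 9 libraries ran from 4.18 for Rpl3l to 14117 for Rplp0, with a median of 1105. In all, 43 had an average level of at least 1000, 29 lay between 100 and 1000, and 9 lay under 100. Per kilobase of coding sequence, with lengths of the mouse genes, the highest were Rpl41 at 25709, Rplp0 at 14798, Rps16 at 13526, Rpl23 at 11351 and Rplp1 at 11194. The lowest tested was Rpl37a at 40.5. Ribosomal protein genes have many near-identical copies in rodent genomes, and whether reads of a gene with a low value were placed on such copies was not tested. One gene, the muscle-expressed paralog Rpl3l, had an average level under 10 and was not tested, which leaves 80.

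The share of assigned reads, those on the 15092 solved genes, that fell on the 81 genes was 1.96% in LacZ a, 1.85% in LacZ b and 1.91% in LacZ c. It was 1.61%, 1.56% and 1.58% in Nrf1 a, b and c, and 1.81%, 1.76% and 1.84% in Nrf2 a, b and c. The groups did not overlap: the 3 Nrf1 libraries were lowest, the 3 LacZ libraries highest, and the Nrf2 libraries lay between them, closer to LacZ. Group means were 1.91 ± 0.0524% (SD, n = 3) for LacZ, 1.58 ± 0.0208% for Nrf1 and 1.81 ± 0.0400% for Nrf2. The difference was -0.323 percentage points for Nrf1 against LacZ, -0.101 for Nrf2 against LacZ and 0.222 for Nrf2 against Nrf1. Each has p = 0.1 in a two-sided exact permutation test, the smallest p that 3 against 3 libraries can give. For a single library the 95% Wilson interval was narrow, 1.95 to 1.97% for LacZ a, and covers counting error only.

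**Figure D1:**
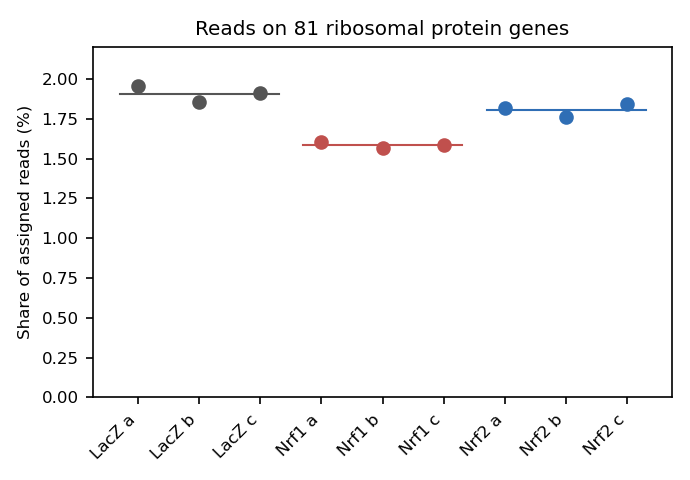
Share of assigned reads on the 81 ribosomal protein genes (%, vertical axis) in each library by group; points are libraries with their 95% Wilson interval, and lines are group means. The Nrf1 libraries lie between 1.56 and 1.61%, below all LacZ and Nrf2 libraries.

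Nrf1 against LacZ asks what the Nrf1 virus changed relative to the control virus. Of the 80 tested genes, 39 were lower with Nrf1 (48.8%, against 32.6% of all 11322 genes tested) and 6 were higher (7.5%, against 35.5% of all genes), at an adjusted p under 0.05 in limma. Their median log2 ratio was -0.17, that of all genes was 0.01, and 63 of the 80 ratios were below 0. Most shifts were small: 28 of the called genes changed by more than 1.2-fold and 7 by more than 1.5-fold. Those 7 include Rplp2 at a ratio of 2.55 and Rps19 at 0.450. The shares of all genes past these fold limits are not given here, so these counts describe the members only. Scaling to total reads gave 47 lower and 4 higher, and the direction did not turn. The same scaling moved all genes from 3694 lower and 4023 higher to 4278 lower and 3393 higher. In RNA from whole cultures, fewer cells of a type and less RNA per cell cannot be told apart.

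Most of the lower genes were abundant. Among the 43 genes with an average level of at least 1000, 29 were lower and 0 were higher in limma (1 at an unadjusted p under 0.05, and 0 with voom weights), with a median of -0.21. Among all 2360 genes at that level, 28.4% were lower and 52.1% were higher, with a median of 0.11. Among the 29 ribosomal protein genes between 100 and 1000, 7 were lower (24.1%) and 6 higher (20.7%), with a median of -0.08, against 31.8% lower and 38.3% higher among all 6029 genes at that level, with a median of 0.04. Both shares of the members lie under the background there. The difference between these level classes was not tested.

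Nrf2 against LacZ asks the same of the Nrf2 virus. Here 19 of the 80 genes were higher (23.8%, against 29.5% of all genes) and 12 were lower (15%, against 26.6%), while scaling to total reads turned this balance to 9 higher and 20 lower. The same scaling turned that of all genes from 3336 higher and 3011 lower to 2551 higher and 4129 lower. The median log2 ratio of the members was 0.03, with 0.00 for all genes, and it became -0.06 with scaling to total reads and -0.01 without LacZ b. Relative to the median of all genes it was 0.03 under each of the 3 scalings. This value could not differ, because a scaling shifts all genes nearly alike. The count of higher genes fell to 12 without Nrf2 c, and the count of lower genes to 6 without LacZ a and 7 without Nrf2 b. The shares of called genes lie under the background in both directions, and 2 called genes changed by more than 1.5-fold, Rpl32 and Rps9. Of the 43 members with an average level of at least 1000, 8 were higher (18.6%) and 9 lower (20.9%), with a median of 0.01. Among all 2360 genes at that level, 48.3% were higher and 24.7% lower, with a median of 0.09.

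Nrf2 against Nrf1 sets the 2 factors against each other directly. Of the 80 genes, 40 were higher with Nrf2 (50%, against 27.5% of all genes) and 1 was lower (1.25%, against 27.5%), under limma. The median log2 ratio was 0.20 against 0.00 for all genes, and 68 ratios were above 0. Scaling to total reads gave 39 higher and 1 lower, while all genes went from 3114 higher and 3113 lower to 2958 higher and 3345 lower. The 43 abundant genes had 30 higher and 0 lower in limma (0 also at an unadjusted p under 0.05 and with voom weights), where all genes at that level had 31.8% higher and 36.9% lower. The comparisons share libraries, LacZ with LacZ and each factor with itself, so the values of a gene in the 3 comparisons are not independent and are set side by side only.

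**Figure D2:**
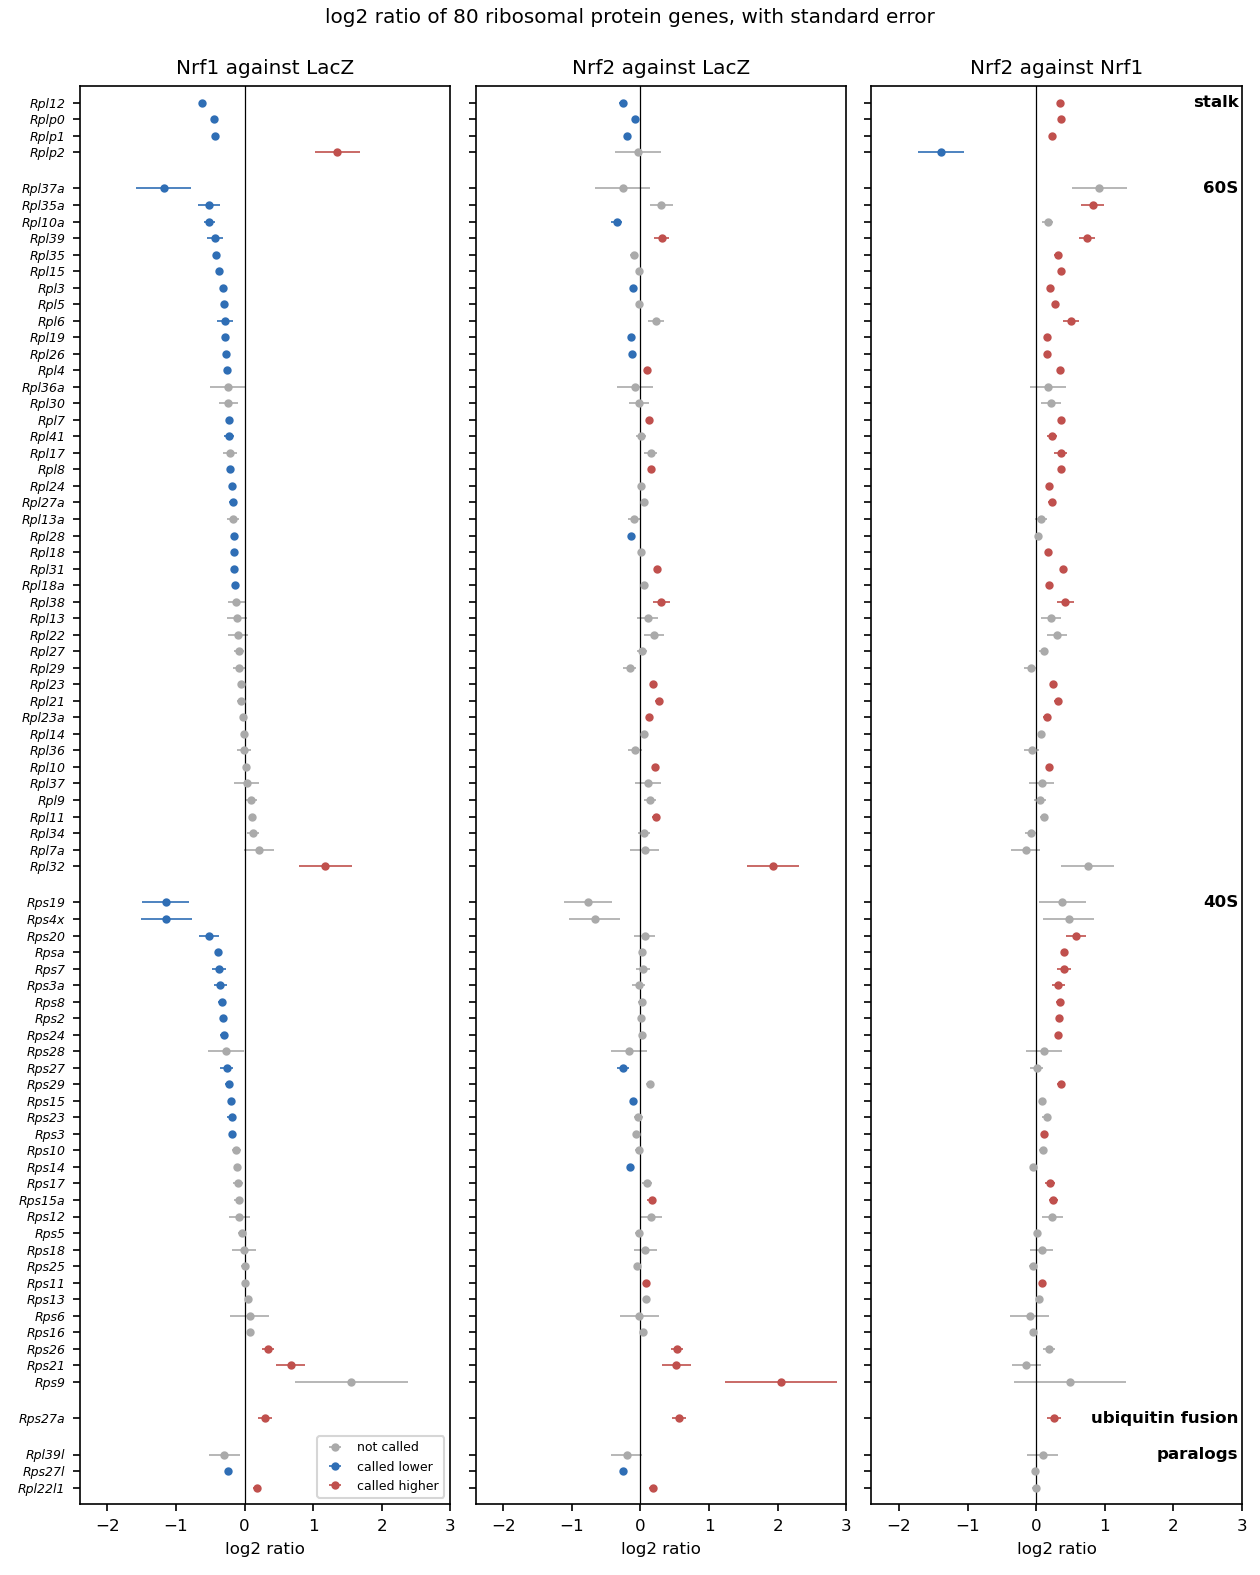
Log2 ratio of each tested ribosomal protein gene (horizontal axis) in the 3 comparisons, with standard errors, genes grouped by role, and called genes marked by colour. Most ratios for Nrf1 against LacZ lie below 0 (63 of 80) and most for Nrf2 against Nrf1 above 0 (68 of 80); for Nrf2 against LacZ 47 lie above 0, and 28 when scaled to total reads.

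The stalk holds Rplp0, which anchors the acidic proteins Rplp1 and Rplp2 to the large subunit, with Rpl12 at its base. Rplp0 had levels of 16004, 15276 and 16013 in LacZ, 11432, 11625 and 11749 in Nrf1, and 14937, 14919 and 15098 in Nrf2. The Nrf1 libraries lie below all others and the Nrf2 libraries slightly below LacZ, without overlap. Rplp0 fell with Nrf1 (log2 ratio -0.44 ± 0.028 (SE), adjusted p = 8.98e-11) and was higher in Nrf2 than in Nrf1 (0.37, adjusted p = 2.82e-09). The lower value in Nrf2 against LacZ was slight (-0.07, adjusted p = 0.0321), was lost in 7 of 14 alternatives, with adjusted p up to 0.106 without LacZ c, and was larger with scaling to total reads (-0.16, adjusted p = 1.81e-05). Rplp0 is often used as a reference gene for quantitative PCR, and here its level differed between the groups.

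Rplp1 had levels of 4550, 4116 and 4591 in LacZ, 3243, 3538 and 3101 in Nrf1, and 3871, 3798 and 3947 in Nrf2. The 3 groups do not overlap and stand in the same order as for Rplp0. Its log2 ratio was -0.42 ± 0.046 (adjusted p = 2.04e-07) for Nrf1 against LacZ and -0.19 (adjusted p = 0.00197) for Nrf2 against LacZ. Rpl12 was at 994, 978 and 1049 in LacZ, 637, 627 and 712 in Nrf1, and 867, 814 and 845 in Nrf2. It too fell in both, by 0.61 on the log2 scale with Nrf1 (adjusted p = 8.78e-09) and by 0.26 with Nrf2 (adjusted p = 0.000425). Rpl12 is 1 of the 7 members past 1.5-fold in Nrf1 against LacZ.

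Rplp2 had uneven libraries and was called opposite to its partners in both comparisons with Nrf1. Its levels were 201, 94.3 and 129 in LacZ, 715, 170 and 340 in Nrf1, and 125, 136 and 134 in Nrf2. Nrf1 a is the highest library, Nrf1 b lies within the range of LacZ, and the Nrf2 libraries lie close together. The log2 ratio was 1.35 ± 0.33 (adjusted p = 0.00142) for Nrf1 against LacZ and -1.39 (adjusted p = 0.00158) for Nrf2 against Nrf1, where it is the single member called lower. For Nrf2 against LacZ it was -0.03 (adjusted p = 0.935), not called. Without Nrf1 a these ratios were 0.83 (adjusted p = 0.00912) and -0.87 (adjusted p = 0.00952). Its level per kilobase was 653, against 11194 for Rplp1, with which its protein pairs.

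**Figure D3:**
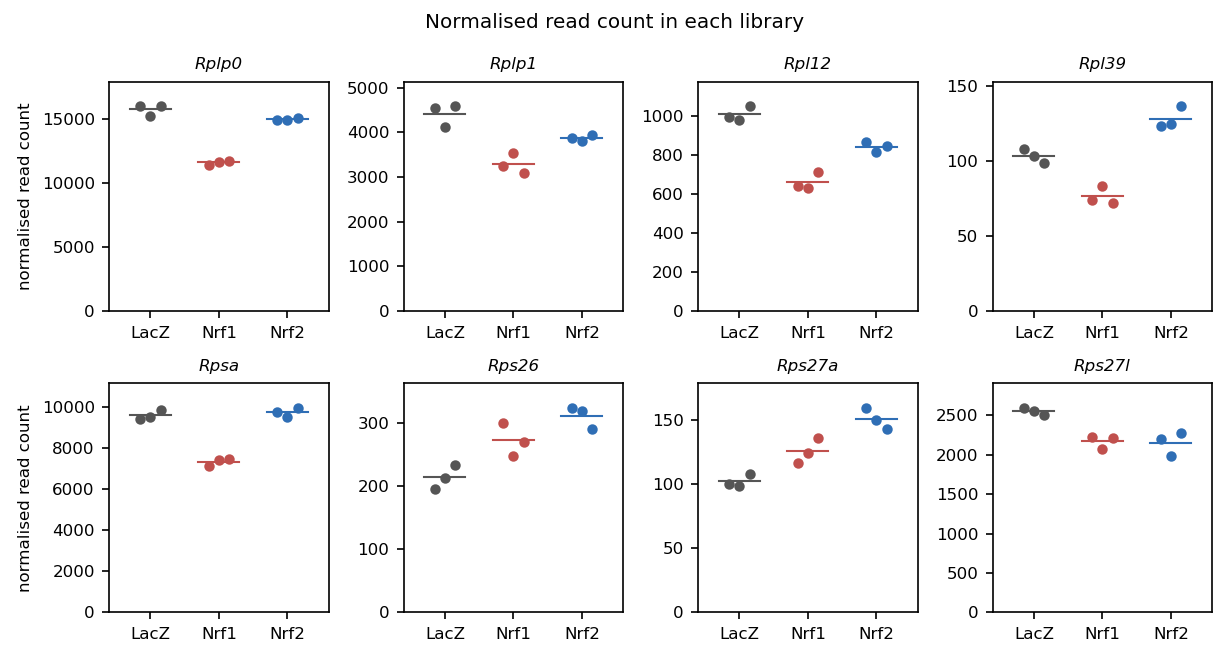
Level (normalised read count, vertical axes from 0) of 8 named ribosomal protein genes in each of the 9 libraries; points are libraries and lines are group means. Rplp0 lies between 11432 and 11749 in Nrf1 and between 15276 and 16013 in LacZ.

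In the 60S subunit, limma called 21 of 42 genes lower (50%, against 32.6% of all genes) and 1 higher (2.38%, against 35.5%) in Nrf1 libraries, with a median log2 ratio of -0.16. With Nrf2 against LacZ, 12 were higher (28.6%, near the 29.5% of all tested genes) and 5 lower (11.9%, against 26.6%), with a median of 0.06. These counts are before the turn of the whole set under scaling to total reads given above. Among all genes with an average level of at least 1000, the share higher was 48.3%. With Nrf2 against Nrf1, limma called 24 higher (57.1%, against 27.5% of all genes) and 0 lower (0 also at an unadjusted p under 0.05 and with voom weights), with a median of 0.21. Ratios within the subunit ran from -1.18 to 1.18 for Nrf1 against LacZ. The lower end belongs to a gene with an average level under 100, and the upper end to Rpl32, whose Nrf1 libraries were uneven.

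Rpl10a, a protein near the site where the spent tRNA leaves, had levels of 720, 542 and 569 in LacZ, 434, 449 and 392 in Nrf1, and 491, 459 and 479 in Nrf2. All LacZ libraries lie above the other 6. The log2 ratios were -0.51 (adjusted p = 2.68e-05) in Nrf1 and -0.35 (adjusted p = 0.00173) in Nrf2, the latter -0.23 without LacZ a. Rpl39, a small protein of the exit tunnel, was at 108, 103 and 98.4 in LacZ, 73.8, 82.9 and 72 in Nrf1, and 123, 124 and 136 in Nrf2. The 3 groups do not overlap, with Nrf1 lowest and Nrf2 highest. Rpl39 was lower with Nrf1 (-0.43, adjusted p = 0.00237) and higher in Nrf2 than in Nrf1 (0.74, adjusted p = 1.99e-05), while its rise with Nrf2 against LacZ (0.31, adjusted p = 0.0253) was lost without LacZ c or Nrf2 c and with scaling to total reads, with adjusted p up to 0.0996.

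Rpl6 was at 1008, 1015 and 1100 in LacZ, 1038, 894 and 669 in Nrf1, and 1277, 1004 and 1398 in Nrf2. The Nrf1 libraries spread widely, with c lowest, and overlap LacZ. Rpl6 was higher in Nrf2 than in Nrf1 (0.51 ± 0.12, adjusted p = 0.00135, and 0.33 without Nrf1 c), and its call in Nrf1 against LacZ (-0.29, adjusted p = 0.0408) was lost in 5 of 14 alternatives: without Nrf1 c (-0.11, adjusted p = 0.358, the highest), LacZ c or Nrf1 b, with voom weights and with no filter. Rpl41, the shortest ribosomal protein, was at 2306, 1819 and 2194 in LacZ, 1999, 1676 and 1724 in Nrf1, and 2055, 2011 and 2264 in Nrf2. Nrf1 a lies within the range of LacZ, and the call for Nrf1 against LacZ (-0.22, adjusted p = 0.0124) was lost without LacZ a, LacZ c, Nrf1 b or Nrf1 c, with adjusted p up to 0.0771. Its call in Nrf2 against Nrf1 (0.23, adjusted p = 0.0129) was lost without Nrf1 b, Nrf1 c or Nrf2 c, with adjusted p up to 0.078.

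Against LacZ, Rpl23 did not follow the stalk genes Rplp0, Rplp1 and Rpl12. Its levels were 4970, 4352 and 4643 in LacZ, 4562, 4285 and 4559 in Nrf1, and 5343, 5087 and 5410 in Nrf2. LacZ and Nrf1 overlap and the 3 Nrf2 libraries are highest, with a log2 ratio to LacZ of 0.18 (adjusted p = 0.00128), which is 0.10 with scaling to total reads, and -0.06 (adjusted p = 0.242) for Nrf1 against LacZ. Between the factors Rpl23 was higher in Nrf2 (0.24, adjusted p = 0.000106), the same direction as Rplp0, Rplp1 and Rpl12. Rpl29 and Rpl34 were not called in any comparison, with levels of 837 to 1112 and of 332 to 429 over the 9 libraries. Below an average level of 100, Rpl35a and Rpl37a, chosen after their values were seen because they passed 1.5-fold, had 33.2 ± 1.06 (SD, n = 3) against 59.8 ± 5.87 in Nrf1 and Nrf2 for Rpl35a, and 15.6 ± 8.26 against 6.05 ± 2.33 in LacZ and Nrf1 for Rpl37a. Rpl37a rests on 4 to 21 reads in a library of those groups.

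In the 40S subunit, 14 of 30 genes were called lower (46.7%, against 32.6% of all genes) and 2 higher (6.67%, against 35.5%) in Nrf1 libraries, with a median log2 ratio of -0.15. With Nrf2 against LacZ, 5 were higher (16.7%) and 3 lower (10%), both under the 29.5% and 26.6% of all genes, with a median of 0.02, a balance that the scaling above turns for the whole set. With Nrf2 against Nrf1, limma called 12 higher (40%, against 27.5% of all genes) and 0 lower (0 also at an unadjusted p under 0.05 and with voom weights), with a median of 0.17. The subunits were not tested against each other.

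Rpsa, a protein of the back of the small subunit that is also known as a laminin receptor, had levels of 9388, 9515 and 9855 in LacZ, 7097, 7398 and 7444 in Nrf1, and 9728, 9491 and 9955 in Nrf2. The Nrf1 libraries lie below the other 6, and LacZ and Nrf2 overlap. Rpsa fell with Nrf1 (log2 ratio -0.39 ± 0.031, adjusted p = 2.6e-09) and was higher in Nrf2 than in Nrf1 (0.41, adjusted p = 2.93e-09), with a ratio of 0.02 for Nrf2 against LacZ (adjusted p = 0.591). Rps16, among the most abundant per length, was at 6274, 5356 and 5779 in LacZ, 6195, 6058 and 6151 in Nrf1, and 5613, 6058 and 6203 in Nrf2. All 3 groups overlap and no comparison called it.

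Rps26, a protein at the mRNA exit, was at 195, 212 and 234 in LacZ, 299, 247 and 270 in Nrf1, and 324, 318 and 289 in Nrf2. The LacZ libraries are the 3 lowest. It rose by 0.35 ± 0.087 with Nrf1 (adjusted p = 0.00184) and by 0.54 with Nrf2 (adjusted p = 3.67e-05). Rps27 was at 468, 393 and 388 in LacZ, 393, 328 and 322 in Nrf1, and 347, 316 and 385 in Nrf2. Its log2 ratios to LacZ were -0.26 in Nrf1 (adjusted p = 0.0173) and -0.25 in Nrf2 (adjusted p = 0.0251). Both calls were lost without LacZ a, the highest library, where the ratios were -0.172 in Nrf1 and -0.168 in Nrf2. The first call was also lost without Nrf1 b or Nrf1 c, with adjusted p up to 0.107. The second was also lost without Nrf2 a or Nrf2 b, with adjusted p up to 0.136.

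Rps27a encodes ubiquitin joined to a small subunit protein. Its levels were 101, 98.8 and 108 in LacZ, 116, 125 and 136 in Nrf1, and 160, 150 and 143 in Nrf2. The groups do not overlap and rise from LacZ over Nrf1 to Nrf2. It was higher with Nrf1 (0.29 ± 0.10, adjusted p = 0.0177), with Nrf2 (0.56, adjusted p = 0.00015) and in Nrf2 against Nrf1 (0.27, adjusted p = 0.0365). The Nrf1 call was lost without Nrf1 c and under both other scalings, with adjusted p up to 0.079, and the call between the factors was lost without Nrf1 a, Nrf1 b, Nrf2 a or Nrf2 b and with no filter, with adjusted p up to 0.146.

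The 4 paralogs did not move together. Rps27l, a close relative of Rps27 known as a p53 target, was at 2600, 2557 and 2507 in LacZ, 2228, 2080 and 2209 in Nrf1, and 2197, 1981 and 2276 in Nrf2. The LacZ libraries lie above the other 6, with log2 ratios of -0.23 (adjusted p = 0.000173) for Nrf1 and -0.25 (adjusted p = 0.000129) for Nrf2. Rpl22l1 was at 405, 429 and 392 in LacZ, 444, 460 and 492 in Nrf1, and 468, 443 and 481 in Nrf2. Its log2 ratio to LacZ was 0.19 in Nrf1 (adjusted p = 0.0115) and 0.18 in Nrf2 (adjusted p = 0.0161), and both calls were lost without LacZ c and with scaling to total reads, with adjusted p up to 0.107 and 0.196. The call for Nrf1 was also lost without Nrf1 c and with re-centring on the median gene, and that for Nrf2 without Nrf2 c. Rpl39l had levels from 20.5 to 33.2 and was not called, and Rpl3l had 1 to 7 reads in a library.

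Members differed in how steady they were within a group. Of the 72 with an average level of at least 100, 7 (9.72%) differed more than 2-fold between libraries of the same group, against 38 of 8389 genes (0.453%). These were Rpl32, Rplp2, Rps19, Rps21, Rps4x, Rps6 and Rps9, a measure chosen after their values were seen. Of the 7 genes called past 1.5-fold in Nrf1 against LacZ, 5 are among them. Without these 7, the calls for Nrf1 against LacZ were 37 lower and 3 higher, those for Nrf2 against LacZ 16 higher and 12 lower, and those for Nrf2 against Nrf1 40 higher and 0 lower in limma (0 also at an unadjusted p under 0.05 and with voom weights), an alternative added after seeing the data.

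Rps9 was at 34.2, 30.3 and 42.7 in LacZ, 219, 204 and 26.3 in Nrf1, and 941, 35 and 100 in Nrf2. A single library, Nrf2 a with 1136 reads, carries most of the Nrf2 mean. The call for Nrf2 against LacZ (2.05 ± 0.82, adjusted p = 0.0401) was lost without that library (0.73, adjusted p = 0.342, the highest of its alternatives), without each LacZ library in turn, with voom weights (2.13, adjusted p = 0.181) and with no filter, while it was 3.09 without Nrf2 b. Rpl32 was at 109, 137 and 173 in LacZ, 512, 527 and 112 in Nrf1, and 375, 577 and 671 in Nrf2. Nrf1 c lies with LacZ while the 3 Nrf2 libraries lie above all LacZ libraries. Rpl32 was higher with Nrf2 (1.93 ± 0.38, adjusted p = 0.000309), and its call with Nrf1 (1.18, adjusted p = 0.0112) was lost without Nrf1 a or Nrf1 b, with adjusted p up to 0.087, and was 1.92 without Nrf1 c.

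Rps19 was at 272, 127 and 658 in LacZ, 111, 129 and 144 in Nrf1, and 202, 172 and 132 in Nrf2. Rps4x was at 297, 92.1 and 460 in LacZ, 85.2, 122 and 112 in Nrf1, and 99.4, 205 and 154 in Nrf2. For both genes LacZ c is the highest library and LacZ b lies within the range of Nrf1. Rps19 was called lower with Nrf1 (-1.15 ± 0.35, adjusted p = 0.007), at -0.55 without LacZ c (adjusted p = 0.0486) and -1.73 without LacZ b. Rps4x was called lower too (-1.14 ± 0.37, adjusted p = 0.0118), at -1.80 without LacZ b, and its call was lost without LacZ c (-0.65, adjusted p = 0.109, the highest of its alternatives) and without Nrf1 a.

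Rps21 was at 712, 303 and 634 in LacZ, 667, 976 and 848 in Nrf1, and 761, 848 and 635 in Nrf2. LacZ b is the lowest library and the groups overlap. The call with Nrf1 (0.67, adjusted p = 0.00891) was lost without Nrf1 b and was 0.29 without LacZ b, and that with Nrf2 (0.53, adjusted p = 0.0406) was lost without LacZ b (0.14, adjusted p = 0.324, the highest of its alternatives), Nrf2 a or Nrf2 b, with scaling to total reads, with no filter and with only the 6 libraries compared. Rps6, whose protein is phosphorylated by S6 kinase, was at 138, 145 and 159 in LacZ, 340, 99.5 and 110 in Nrf1, and 152, 155 and 131 in Nrf2. Nrf1 a stands apart and Rps6 was not called in any comparison.

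**Figure D4:**
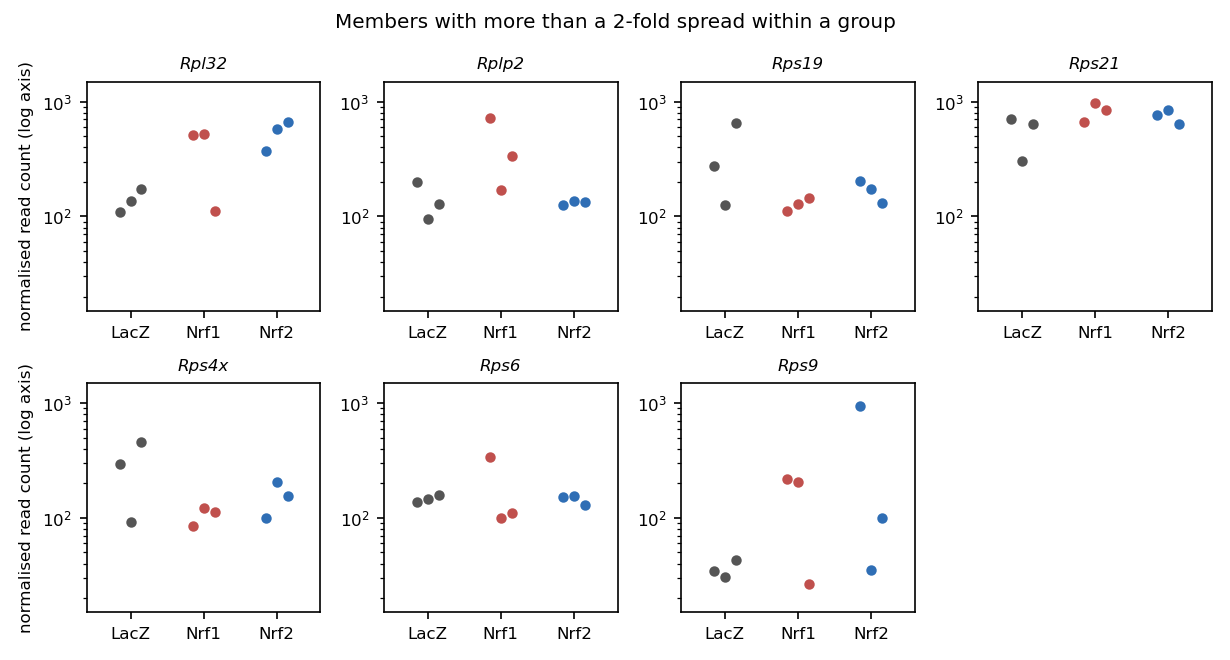
Level (normalised read count, logarithmic vertical axes) in each of the 9 libraries of the 7 ribosomal protein genes that differ more than 2-fold within a group, points coloured by group. Rps9 runs from 35 to 941 within Nrf2.

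Gnb2l1 (also called Rack1), a scaffold protein of the small subunit outside the symbol rule, was at 7431, 6872 and 7079 in LacZ, 5796, 5736 and 5919 in Nrf1, and 7232, 7145 and 7269 in Nrf2. It showed the same order as Rpsa, lower with Nrf1 (-0.29, adjusted p = 1.78e-07). Among 20 other genes with a 5 prime TOP tract, 10 were lower (50%) and 4 higher (20%) with Nrf1 (median log2 ratio -0.11), 9 higher (45%) and 2 lower (10%) with Nrf2 against LacZ (0.08), and 12 higher (60%) and 0 lower with Nrf2 against Nrf1 (0.16), where limma gave 0 lower also at an unadjusted p under 0.05 and with voom weights. Eef2, the factor that moves the ribosome along the mRNA, was at 38091, 37078 and 38103 in LacZ, 30678, 31482 and 30972 in Nrf1, and 39019, 39145 and 38449 in Nrf2. Pabpc1, the poly(A)-binding protein, was the member of that list with the largest difference between the factors (0.85, adjusted p = 8.58e-14).

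Other genes of translation were counted in the same way and not tested against the ribosomal proteins. The lists overlap: Eef2 (elongation), Pabpc1 (initiation) and Gnb2l1 were also counted among the genes with a TOP tract. Of all genes, 35.5% were higher and 32.6% lower with Nrf1, 29.5% and 26.6% with Nrf2, and 27.5% and 27.5% between the factors. Of 10 elongation genes, 5 were higher (50%) and 3 lower (30%) with Nrf1, 6 higher (60%) and 0 lower with Nrf2 in limma (0 also at an unadjusted p under 0.05 and with voom weights), and 5 higher (50%) and 1 lower (10%) between the factors. Eef1a2, the muscle form of the factor that delivers tRNA, rose with Nrf1 by 1.46 on the log2 scale (adjusted p = 1.9e-16). Eif5a2, of the same list, fell with Nrf1 by 0.70 (adjusted p = 4.82e-08). Of 34 initiation genes, 21 were higher (61.8%) and 8 lower (23.5%) with Nrf1, 16 higher (47.1%) and 6 lower (17.6%) with Nrf2, and 9 higher (26.5%) and 15 lower (44.1%) between the factors. Of 12 genes that control growth and TOP mRNAs, 8 were higher (66.7%) and 3 lower (25%) with Nrf1, 6 higher (50%) and 2 lower (16.7%) with Nrf2, and 4 higher (33.3%) and 5 lower (41.7%) between the factors. Rptor, a subunit of the mTOR complex, rose with Nrf1 by 0.71 (adjusted p = 1.58e-09), while Mycn fell by 0.60 (adjusted p = 5.63e-06).

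Of 32 small subunit assembly genes, 11 were higher (34.4%) and 11 lower (34.4%) with Nrf1, and 11 higher (34.4%) and 9 lower (28.1%) with Nrf2, near the shares of all genes. Between the factors, 5 were higher (15.6%) and 3 lower (9.38%), under those of all genes. Of 39 large subunit assembly genes, 19 were higher (48.7%) and 7 lower (17.9%) with Nrf1, 14 higher (35.9%) and 4 lower (10.3%) with Nrf2, and 10 higher (25.6%) and 14 lower (35.9%) between the factors. Of 14 genes of RNA polymerase I, which makes ribosomal RNA, 1 was higher (7.14%) and 7 lower (50%) with Nrf1, 4 higher (28.6%) and 4 lower (28.6%) with Nrf2, and 7 higher (50%) and 1 lower (7.14%) between the factors. Taf1d fell with Nrf1 by 1.09 (adjusted p = 1.02e-10). The 67 mitochondrial ribosomal proteins had 49 higher (73.1%) and 4 lower (5.97%) with Nrf1 (median 0.37), 43 higher (64.2%) and 1 lower (1.49%) with Nrf2 (median 0.20), and 8 higher (11.9%) and 31 lower (46.3%) between the factors (median -0.16). Cytosolic ribosomal proteins had medians of -0.17, 0.03 and 0.20 in these comparisons, the 2 sets of ribosomal proteins standing on opposite sides of 0 for Nrf1 against LacZ and between the factors.

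**Figure D5:**
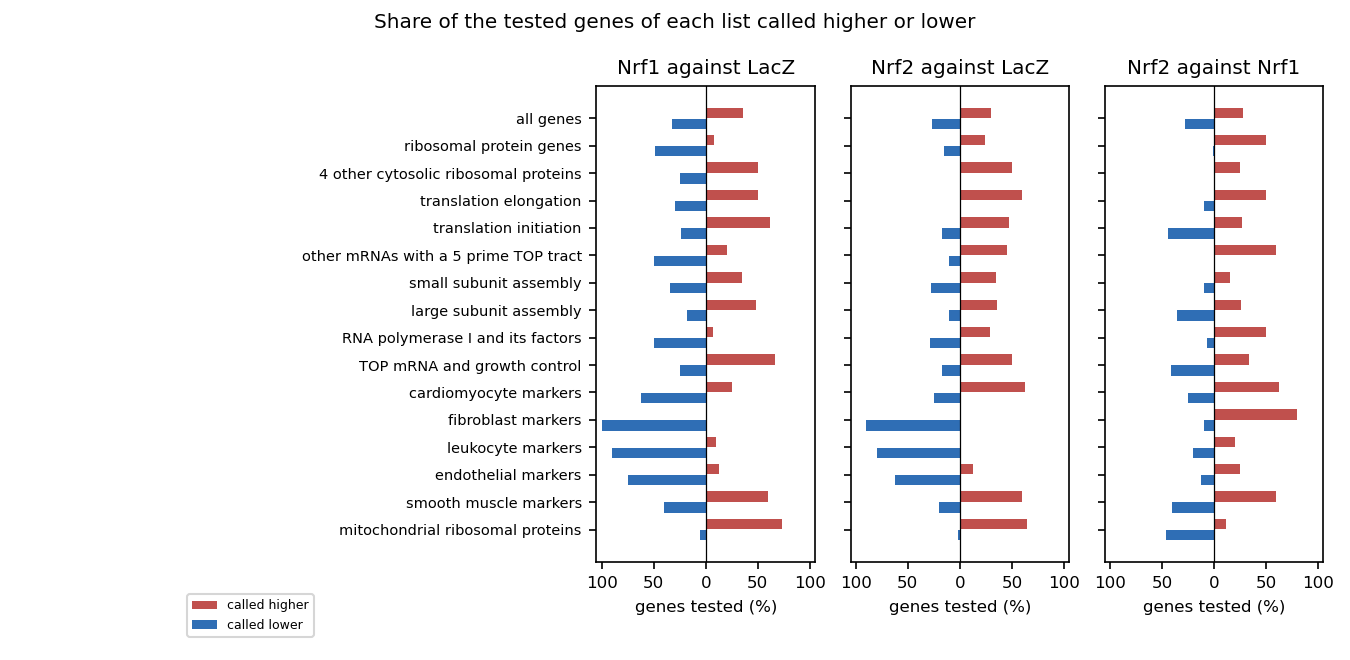
Percentage of the tested genes of each list called higher (right) or lower (left) in the 3 comparisons, beside all genes. Ribosomal protein genes show 48.8% lower with Nrf1 and mitochondrial ribosomal proteins 73.1% higher.

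Markers of other cell types moved with the same groups, and their part in the values above was not tested. All 10 fibroblast markers were lower with Nrf1 and 9 with Nrf2, and their summed level was 123635, 129734 and 124797 in LacZ, 32676, 34104 and 31617 in Nrf1, and 69649, 64437 and 67106 in Nrf2. Between the factors, 8 were higher and 1 lower in Nrf2. The sum ranked the groups as the share of ribosomal protein reads did, LacZ first, Nrf2 next and Nrf1 lowest. The group means of the endothelial sums had that order too, while those of the leukocyte, smooth muscle and cardiomyocyte sums did not. Col1a1, a collagen, was the most abundant marker, at 91516, 91306 and 91872 in LacZ, 23943, 25159 and 23009 in Nrf1, and 51910, 47889 and 49281 in Nrf2. Col1a1 made up most of the sum in every library, so the sum does not stand for the number of fibroblasts alone. No marker of these 5 lists was at 0 in any library.

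Of 10 leukocyte markers, 9 were lower and 1 higher with Nrf1, and 8 were lower with Nrf2, with Lyz2 the most abundant (779 ± 181 (SD, n = 3) in LacZ, 317 ± 22.9 in Nrf1, 257 ± 4.57 in Nrf2). Their summed level was 1702, 2502 and 1824 in LacZ, 993, 1025 and 1036 in Nrf1, and 930, 1039 and 1039 in Nrf2. Of 8 endothelial markers, 6 were lower and 1 higher with Nrf1 and 5 lower and 1 higher with Nrf2, with Flt1 the most abundant. Their summed level was 1933, 2042 and 1958 in LacZ, 1398, 1322 and 1382 in Nrf1, and 1460, 1313 and 1580 in Nrf2. Of 5 smooth muscle markers, 3 were higher and 2 lower with Nrf1 and 3 higher and 1 lower with Nrf2, with Acta2 the most abundant. Their summed level was 38582, 31946 and 35494 in LacZ, 59559, 59084 and 58746 in Nrf1, and 46531, 47481 and 49800 in Nrf2, mostly from Acta2 (17501 ± 1843 (SD, n = 3) in LacZ and 31319 ± 445 in Nrf1) and Tagln (13594 ± 1460 and 24205 ± 113). Both are also made by immature heart muscle cells, so this sum does not stand for smooth muscle cells alone. Myh11, the smooth muscle myosin, fell with Nrf1 (log2 ratio -1.003, adjusted p = 1.84e-11), and Rgs5, a pericyte gene, was lower too (-1.65, adjusted p = 0.011), a call lost without LacZ b (-1.04, adjusted p = 0.0845) or Nrf1 b (-1.06, adjusted p = 0.0813). Of the 8 cardiomyocyte markers, 5 were lower and 2 higher with Nrf1, and 5 were higher and 2 lower with Nrf2, so their sum adds genes that moved in opposite directions. With Nrf1, Myh7 (-1.06, adjusted p = 4.32e-14), Myl2 (-0.995, adjusted p = 1.29e-13) and Tnni3 (-0.96, adjusted p = 5.41e-14), all of the contractile filaments, fell, while Actc1 (0.64, adjusted p = 9e-09) and the calcium channel Ryr2 (0.83, adjusted p = 2.23e-13) rose. LacZ b stood apart in several lists, with the highest fibroblast and leukocyte sums and the lowest cardiomyocyte sum of the LacZ libraries, and also held the lowest share of ribosomal protein reads among them.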

How the data were processed

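RNA of neonatal rat ventricular myocytes infected with LacZ, Nrf1 or Nrf2 adenovirus was sequenced in 9 libraries, 3 per group. By the methods of the paper, the authors used FastQC 0.11.4, aligned reads to Rnor_6.0 with HISAT2 2.0.4, removed duplicates with SAMtools 0.1.18, counted reads per gene with featureCounts 1.6.0 and compared groups with edgeR 3.20.5, although the deposited column names follow those of DESeq. The signal the authors deposited, in 3 tables of 1 pair of groups each, is the mean over 3 libraries of read counts divided by size factors. The tables also hold the authors' fold changes, their logarithms, p-values, adjusted p-values and a mean over both groups, which were not used. There were 0 unused columns of single samples.

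Each group stands in 2 tables with different size factors, so the whole reads of each library were solved from its group means. This gave 1 solution in all 9 libraries for 15092 of 15096 genes listed in at least 2 tables (99.97%). Col4a1, Eln, Fn1 and Nppa were left out as unsolved. Size factors recomputed from the solved reads differed from those in the tables by at most 0.011%. In each table with LacZ, 26 symbols written as dates were not matched. The recovered libraries are not tied to the replicate numbers of the labels. Depth ran from 7807850 to 11830320 assigned reads, and intervals cover counting error only.

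Levels were divided by size factors (median of ratios over all genes) and tested with limma 3.58.1 in R 4.3.3 (linear model on log2 of level + 1, all 9 libraries, trend in the variance), for 11322 genes with an average level of at least 10, two-sided, with Benjamini-Hochberg adjustment over them and calls at an adjusted p under 0.05. No count model was run. Shares of reads were compared by an exact permutation test (scipy 1.17.1). Coding lengths are those of mouse genes in GENCODE M21, matched for 81 of 81 members, since no rat annotation was used here. The genes named individually, apart from Rpl35a and Rpl37a, were set by rule: the stalk genes Rplp0, Rplp1 and Rplp2, Rpsa, Rps27a, all paralogs, the 5 highest per coding length, the 5 largest and 5 smallest log2 ratios per comparison at an average level of at least 100, the 3 largest called changes of each gene list, the most abundant gene of each marker list, and Nfe2l2. A result withheld for evaluation is not reported here. The members and lists were chosen with earlier results of these data known. Alternatives were other scalings, filters, pseudocounts of 0.5 and 5, voom weights, fold limits of 1.2 and 1.5, the ratio of the authors' means with no test, only the 6 libraries compared, other sets of members, and leaving out each library.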

Additional observations from a re-analysis of the deposited data

How the results depend on the processing

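Of 42 calls of ribosomal protein genes named by the rule (without Rpl35a and Rpl37a), 26 were kept under all alternatives run, 16 were lost under some, and 0 turned direction; of 119 calls of named genes of the lists, 108 were kept and 11 lost under some. The counts of members depended on a fold limit. With an adjusted p and more than 1.5-fold, Nrf1 against LacZ had 3 higher and 4 lower, Nrf2 against LacZ 2 and 0, and Nrf2 against Nrf1 2 and 1. With more than 1.2-fold these were 5 higher and 23 lower, 8 and 1, and 24 and 1. The ratio of the authors' means with no test gave, in the same order, 4 higher and 4 lower, 3 and 2, and 5 and 1 past 1.5-fold, and 7 and 26, 10 and 4, and 30 and 2 past 1.2-fold. These counts past a fold limit are given without the share of all genes past it, so they are not set against a background. Scaling to total reads gave 9 higher and 20 lower for Nrf2 against LacZ, and medians of -0.24 for Nrf1 against LacZ and -0.060 for Nrf2 against LacZ. Re-centring on the median gene gave -0.23 for Nrf1 against LacZ and 0.23 for Nrf2 against Nrf1. Leaving out 1 library, the Nrf2 against LacZ counts ran from 12 to 18 higher and from 6 to 17 lower, and the Nrf2 against Nrf1 median from 0.18 to 0.22. Without the 7 uneven genes, an alternative added after seeing the data, 3 were higher for Nrf1 against LacZ, 0 lower for Nrf2 against Nrf1, and the Nrf1 share was 1.56%. From the authors' means in either table the shares were 1.87% (LacZ), 1.56% (Nrf1) and 1.78% (Nrf2). For core members they were 1.875% (LacZ), 1.56% (Nrf1) and 1.78% (Nrf2). With 4 more ribosomal proteins the shares were 2.04% (LacZ), 1.70% (Nrf1) and 1.94% (Nrf2). The cause was not tested. No paired analysis was possible because the recovered libraries carry no replicate number. With 3 libraries a group, the exact permutation test used for the shares cannot pass 0.05, and genes with few reads, such as Rpl3l, are limited by depth.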
